A study of Mus musculus with 60 samples.

Results

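A set of 35 genes known for platelet or megakaryocyte function was followed through whole-blood RNA sequencing (RNAseq) of 60 mice. The genes were named by their role, with earlier results of these data known. They comprised adhesion receptors, receptors for soluble agonists, granule and secreted proteins, eicosanoid enzymes, and proteins of the cytoskeleton and secretion machinery. All 35 were matched by symbol and gene identifier among 49315 counted genes, and all 35 passed the low-count filter in each of 17 comparisons. The mice were male CD2F1 animals, 5 to 6 weeks old at purchase, and were dosed by gavage each morning and evening for 6 days. They received BIO 300, an amorphous solid dispersion of synthetic genistein (a soy isoflavone), or its vehicle of water, methylcellulose and polyvinylpyrrolidone. Vehicle, 50, 100 and 200 mg/kg groups (labelled Vehicle, Low, Med and High) were bled 24 h after dosing ended (Day 0) or 48 h after it (Day 1). A vehicle group and a 200 mg/kg group received 9.2 Gy of total-body gamma irradiation (TBI) on Day 0 and were bled on Day 1, 24 h after exposure. Each of these 10 groups held 6 mice, and each mouse was bled once, from the inferior vena cava into a PAXgene tube, so that no animal was measured at both times.

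Platelets are anucleate fragments of megakaryocytes, and their messenger RNA was made in the parent cell. At a damaged vessel wall, the glycoprotein Ib-IX-V complex captures von Willebrand factor and glycoprotein VI binds collagen. ADP, thrombin and thromboxane then amplify activation, and the integrin of αIIb and β3 chains binds fibrinogen and links platelets to each other. Activated platelets release α-granules loaded with chemokines, adhesive proteins and growth factors. In a library from whole blood, the number of platelets, the RNA in each platelet and the RNA contributed by other blood cells cannot be told apart.

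The libraries held 15099415 to 45589415 counts assigned to genes per mouse. Each of the 35 genes was counted in every mouse, Sparc having the lowest count in a mouse, 1, and F2rl3 the next, 10. The blood label was borne out by red cell, lymphocyte and neutrophil transcripts in every group, whereas the summed transcripts of 8 hepatocyte genes exceeded 500 CPM (counts scaled to a common library total) in 10 mice spread over 9 of the 10 groups. The highest of these was mouse 51, an irradiated vehicle-treated animal, followed by mouse 17 (vehicle, Day 0) and mouse 57 (200 mg/kg, TBI). CPM throughout are scaled by the trimmed mean of M-values (TMM) over all 60 libraries, log2 fold changes are given ± their standard error (SE), and a gene counted as differentially expressed (a DEG) when its log2 fold change exceeded 1 in either direction at an adjusted p under 0.05.

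In vehicle-treated mice on Day 0, levels per kilobase of transcript spanned a wide range. Ppbp, which encodes the precursor of the neutrophil-attracting platelet basic protein, was the highest with a median of 1600.2 CPM per kilobase, followed by Nrgn (neurogranin, a calmodulin-binding protein, 588), Gng11 (a G protein γ subunit, 491) and Pf4 (platelet factor 4, a heparin-binding chemokine, 462). Among adhesion receptors on the same scale, Gp9 was at 195, Itga2b at 83.1, Gp1bb at 44.4, Gp1ba at 29.9 and Gp6 at 18.9 CPM per kilobase. The lowest members were Selp (1.30), F2rl3 (0.651) and Sparc (0.463). Ppbp remained the highest member per kilobase in the 200 mg/kg group on Day 1 (9784 CPM per kilobase) and in irradiated vehicle-treated mice (6595).

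Megakaryocyte genes are classically driven by GATA, ETS and RUNX factors, and the start-proximal sequence is shown for both chemokines and for a fibrinogen and a collagen receptor gene, which moved together in the comparisons that follow. RefSeq windows (GRCm38.p6) of 250 bases ending at the annotated transcript start were found for 29 of the 35 genes, and capitals mark the ETS motif GGAAGT (read as ACTTCC on the opposite strand) or the GATA motif AGATAA. The windows lie at chr5:90772185-90772434 on the plus strand for Pf4, chr5:90768268-90768517 on the plus strand for Ppbp, chr11:102469884-102470133 on the minus strand for Itga2b and chr7:4397745-4397994 on the minus strand for Gp6.
Pf4: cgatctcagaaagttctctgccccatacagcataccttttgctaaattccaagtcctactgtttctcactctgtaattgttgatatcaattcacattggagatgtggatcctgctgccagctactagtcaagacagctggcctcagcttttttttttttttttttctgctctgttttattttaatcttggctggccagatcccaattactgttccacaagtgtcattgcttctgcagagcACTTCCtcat
Ppbp: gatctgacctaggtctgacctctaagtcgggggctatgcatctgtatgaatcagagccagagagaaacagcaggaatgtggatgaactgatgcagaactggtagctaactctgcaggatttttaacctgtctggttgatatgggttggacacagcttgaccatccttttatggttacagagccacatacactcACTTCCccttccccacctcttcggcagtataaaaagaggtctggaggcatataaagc
Itga2b: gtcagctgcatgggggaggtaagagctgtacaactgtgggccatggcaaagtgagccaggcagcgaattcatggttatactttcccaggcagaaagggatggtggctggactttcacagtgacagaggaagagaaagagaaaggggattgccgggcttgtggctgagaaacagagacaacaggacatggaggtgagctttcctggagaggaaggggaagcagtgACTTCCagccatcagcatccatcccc
Gp6: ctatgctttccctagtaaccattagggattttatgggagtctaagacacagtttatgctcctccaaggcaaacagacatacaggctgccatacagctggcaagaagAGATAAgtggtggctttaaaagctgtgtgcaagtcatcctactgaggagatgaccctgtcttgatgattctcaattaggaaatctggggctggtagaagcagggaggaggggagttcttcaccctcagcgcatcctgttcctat
The ETS motif lay 10 bases upstream of the start in Pf4, 57 in Ppbp and 26 in Itga2b, and the GATA motif lay 144 bases upstream in Gp6. Searched on both strands, the ETS motif was present in 10 of the 29 windows (34.5%) and in 20.0% of 27025 windows of all genes. The GATA motif was present in 6 (20.7%, against 10.3% of all windows), and the RUNX motif TGTGGT in 1 (3.45%, against 14.2%). Both the GATA and the ETS motif occurred in 2 members, F2rl3 and Gp5 (6.90%, against 1.88%). These are matches of letters in a fixed window, and binding was not measured.

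The share of each library taken by the 35 genes does not depend on how libraries are scaled to each other. On Day 0 it was 0.845 to 1.47% (median 1.15%) in vehicle-treated mice, 0.700 to 1.23% (median 0.892%) at 50 mg/kg, 0.943 to 1.48% (median 1.04%) at 100 mg/kg and 0.998 to 1.55% (median 1.28%) at 200 mg/kg. On Day 1 the vehicle group was at 0.933 to 1.72% (median 0.956%) and the 50 mg/kg group at 0.990 to 1.67% (median 1.36%). The 100 mg/kg group of that day was at 2.11 to 4.78% (median 3.16%) and the 200 mg/kg group at 2.32 to 3.67% (median 3.06%), above every non-irradiated vehicle and 50 mg/kg mouse of either day. After TBI it was 1.89 to 5.35% (median 4.61%) in vehicle-treated mice and 2.81 to 6.40% (median 5.21%) in the 200 mg/kg group, and the irradiated vehicle-treated mice other than mouse 51 were at 4.27% or more. With haemoglobin genes and Gm26917, a transcript that took 0.0562 to 12.9% of the counts across the 10 groups, removed from the total, the median share was 1.17% in vehicle-treated mice on Day 1, 3.61% at 200 mg/kg and 5.12% in irradiated vehicle-treated mice. Gm26917 itself took 5.32 to 8.77% (median 7.36%) of the counts in vehicle-treated mice on Day 1. It took 0.134 to 0.454% (median 0.278%) at 100 mg/kg and 0.0562 to 1.46% (median 0.165%) at 200 mg/kg on that day, without overlap. In irradiated vehicle-treated mice it took 0.445 to 9.29% (median 2.07%). Its part in the platelet values was not tested.

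**Figure D1:**
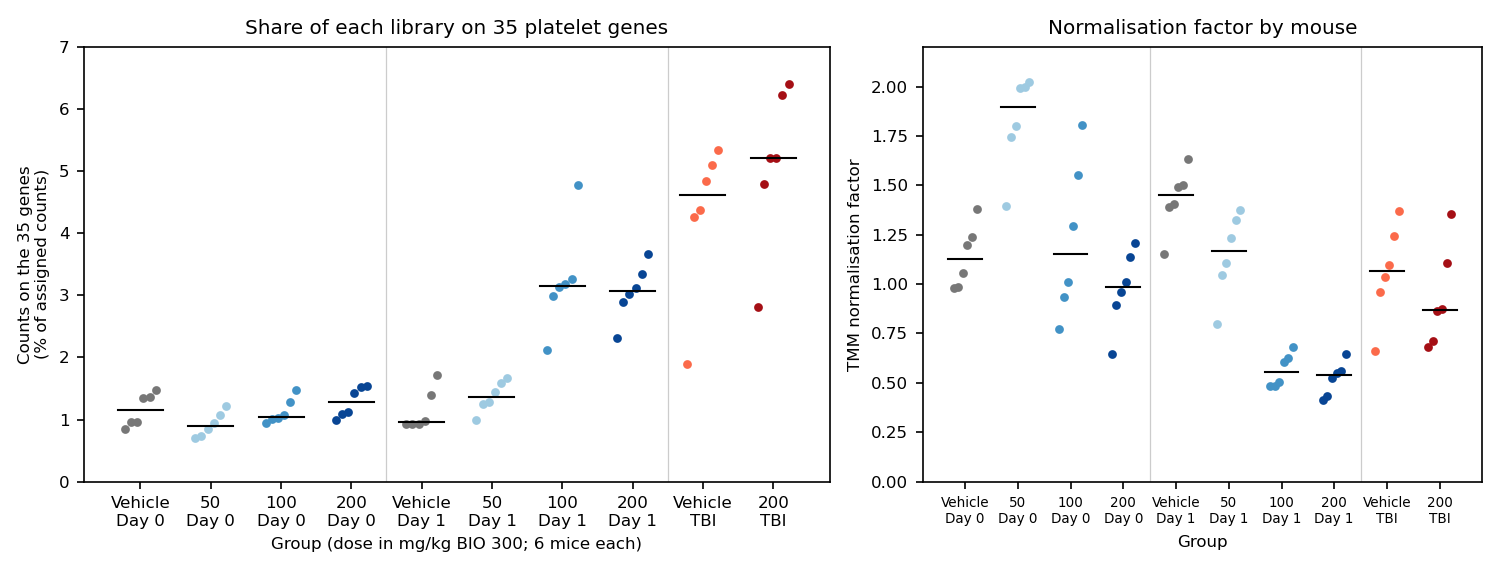
Left, the percentage of assigned counts on the 35 platelet genes in each mouse (points) with the group median (line) for the 10 groups of 6 mice. Medians were 0.956% in vehicle-treated mice on Day 1, 3.16% at 100 mg/kg, 3.06% at 200 mg/kg and 4.61% after TBI. Right, the TMM normalisation factor of each library, with medians of 1.45 in vehicle-treated mice of Day 1 and 0.538 at 200 mg/kg.

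The first question was whether BIO 300 alone altered platelet transcripts 48 h after the last dose. In the 200 mg/kg group on Day 1, all 35 genes were higher than in vehicle-treated mice of that day, against 17.3% of 23513 genes called higher and 30.5% called lower. The median log2 fold change of the 35 was 2.91, a 7.53-fold difference, beside a median of -0.48 for all genes tested. Members ranged from 1.70 for Sparc to 3.57 for Gp1bb, and the groups did not overlap for 34 of the 35, Sparc being the exception (all genes without overlap on the higher side, 16.5%). All 35 were also higher at 100 mg/kg, with a median of 2.91 (18.2% of all genes called higher and 30.6% lower, all-gene median -0.38), and 34 did not overlap (17.2% of all genes). These comparisons, and those at 50 mg/kg and after TBI on Day 1, share the same 6 vehicle-treated mice.

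**Figure D2:**
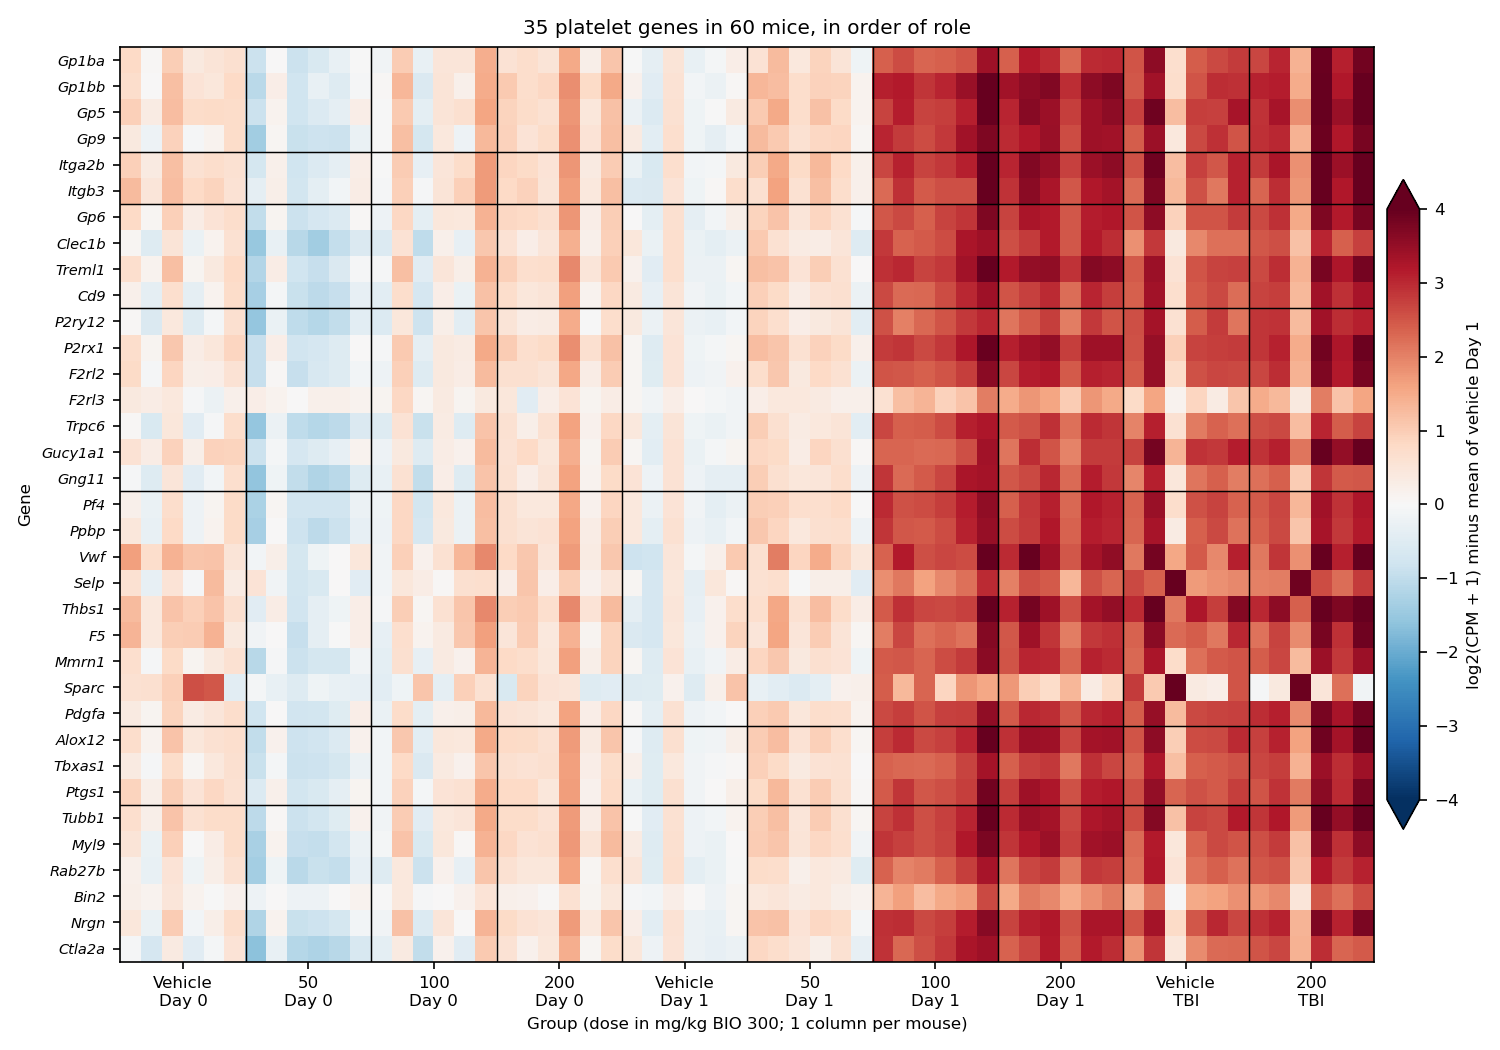
Each row is one of the 35 genes grouped by role, and each column is a mouse. Colour gives log2(CPM + 1) minus the gene's mean in vehicle-treated mice on Day 1, with values beyond 4 in either direction drawn in the end colours. The 100 and 200 mg/kg groups on Day 1 and both TBI groups form the red columns, mouse 51 in the vehicle TBI group is paler, and Sparc and Selp follow a pattern of their own.

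Every part of the von Willebrand factor receptor rose at 200 mg/kg on Day 1. Gp1bb, the β subunit of glycoprotein Ib, was at 42.9 to 89.7 CPM (median 58.3) in vehicle-treated mice, 65.5 to 149 CPM (median 113) at 50 mg/kg, 438 to 1038 CPM (median 530.2) at 100 mg/kg and 465 to 811 CPM (median 720.2) at 200 mg/kg. The vehicle range was left behind by every mouse of the 100 and 200 mg/kg groups, while the 50 mg/kg range overlapped it. Its log2 fold change at 200 mg/kg was 3.57 ± 0.20 (adjusted p = 1.77e-08), or 11.8-fold. Gp9, the small subunit that stabilises the complex at the surface, went from 108 to 229 CPM (median 129) in vehicle-treated mice to 882 to 1590.5 CPM (median 1402) at 200 mg/kg without overlap, a log2 fold change of 3.23 ± 0.22 (adjusted p = 2.65e-08). Gp1ba, which carries the binding site for von Willebrand factor, differed by 2.90 ± 0.20, and Gp5, which associates with the complex and is cut by thrombin, by 3.38 ± 0.22 on the log2 scale. Gp1bb shares an annotated stretch with its same-strand neighbour Sept5, so that its counts are less certain than those of the other subunits.

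Both chains of the fibrinogen receptor moved by similar amounts. Itga2b, the αIIb chain, was at 188 to 454 CPM (median 269) in vehicle-treated mice on Day 1, 332 to 818 CPM (median 531) at 50 mg/kg, 1816 to 5317 CPM (median 2235) at 100 mg/kg and 1901 to 3762 CPM (median 3140.4) at 200 mg/kg. Itgb3, the β3 chain, was at 175 to 424 CPM (median 249), 302 to 789 CPM (median 413), 1262 to 4220.5 CPM (median 1564) and 1448 to 3206 CPM (median 2445) in the same order. For either chain the 100 and 200 mg/kg groups lay wholly above vehicle-treated and 50 mg/kg mice. The log2 fold change against vehicle at 200 mg/kg was 3.37 ± 0.25 (adjusted p = 5.39e-08) for Itga2b and 3.17 ± 0.27 (adjusted p = 2.02e-07) for Itgb3.

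The collagen and podoplanin receptors and their relatives followed. Gp6, the immunoreceptor that binds collagen, was at 53.9 to 111 CPM (median 68.7) in vehicle-treated mice on Day 1, 68.8 to 158 CPM (median 119) at 50 mg/kg, 381 to 970.3 CPM (median 458) at 100 mg/kg and 405 to 694 CPM (median 647) at 200 mg/kg, with a log2 fold change of 3.07 ± 0.20 (adjusted p = 2.32e-08) at the highest dose. Clec1b, which encodes the podoplanin receptor CLEC-2, was at 109 to 226 CPM (median 119) in vehicle-treated mice and 789.8 to 1285 CPM (median 1042) at 200 mg/kg. Its log2 fold change was 2.90 ± 0.22 (adjusted p = 5.15e-08), and its annotation overlaps that of Clec9a on the same strand. Treml1, an α-granule receptor that is displayed on activated platelets, was at 46.2 to 101 CPM (median 60.3) in vehicle-treated mice and 481 to 816 CPM (median 743) at 200 mg/kg, a log2 fold change of 3.46 ± 0.21 (adjusted p = 1.78e-08) and the highest of the 35 after Gp1bb. None of these ranges overlapped. The tetraspanin Cd9, abundant on platelets and present on other cells, differed by 2.77 ± 0.22.

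Among receptors and channels for soluble agonists, 6 of 7 genes had log2 fold changes of 2.53 to 3.34 at 200 mg/kg on Day 1. P2rx1, the ATP-gated channel, differed by 3.34 ± 0.18, F2rl2, the mouse platelet co-receptor for thrombin, by 3.04 ± 0.19, Trpc6, a cation channel, by 2.73 ± 0.19, Gng11 by 2.78 ± 0.24, Gucy1a1, a subunit of the nitric oxide receptor guanylate cyclase, by 2.82 ± 0.22 and P2ry12, the ADP receptor, by 2.53 ± 0.20. The seventh was F2rl3, the signalling thrombin receptor PAR4, which was scarce at 0.762 to 1.35 CPM (median 0.883) in vehicle-treated mice and 2.93 to 5.58 CPM (median 4.69) at 200 mg/kg. Its groups did not overlap, and its log2 fold change was 2.36 ± 0.23 (adjusted p = 6.27e-07). P2ry12 and F2rl2 lie within or across the opposite strand of Med12l and Iqgap2, and whether counting used strand was not given in the sources used here.

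The granule and secreted proteins included Ppbp, the most abundant member. Pf4 was at 228 to 435 CPM (median 263) in vehicle-treated mice on Day 1, 297 to 595 CPM (median 496) at 50 mg/kg, 1752 to 3482 CPM (median 2210.3) at 100 mg/kg and 1459.5 to 2775 CPM (median 2329) at 200 mg/kg. Ppbp was at 1070.3 to 2127 CPM (median 1244), 1206 to 2970.2 CPM (median 2204), 7595 to 15576 CPM (median 9294) and 7217 to 12812 CPM (median 10596) in that order. For both chemokines the upper doses stood clear of vehicle and 50 mg/kg, and the log2 fold change at 200 mg/kg was 2.90 ± 0.23 (adjusted p = 8.25e-08) for Pf4 and 2.91 ± 0.26 (adjusted p = 3.05e-07) for Ppbp. Vwf, the von Willebrand factor itself, was at 68.7 to 254 CPM (median 129) in vehicle-treated mice and 703 to 1981 CPM (median 1278) at 200 mg/kg, a log2 fold change of 3.29 ± 0.35 (adjusted p = 1.54e-06). Thbs1, the adhesive matrix protein thrombospondin-1, was at 134 to 350.3 CPM (median 205) in vehicle-treated mice and 1278 to 3030.2 CPM (median 2199) at 200 mg/kg, a log2 fold change of 3.32 ± 0.28 (adjusted p = 1.60e-07). Neither range overlapped. Pdgfa, a growth factor chain, differed by 3.06 ± 0.20, Mmrn1, which binds coagulation factor V in the granule, by 2.90 ± 0.21 and F5, factor V itself, by 2.77 ± 0.30.

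Selp and Sparc departed from the other granule members in level, and Sparc also did so in spread. Selp, the P-selectin that tethers leukocytes and is also made by endothelium, was at 2.09 to 5.83 CPM (median 4.14) in vehicle-treated mice of Day 1 and 11.5 to 28.6 CPM (median 24.8) at 200 mg/kg, a log2 fold change of 2.53 ± 0.27 (adjusted p = 1.83e-06). Sparc, a matrix protein also made by fibroblasts and endothelium, was at 0.114 to 2.50 CPM (median 0.446) in vehicle-treated mice, 1.85 to 7.48 CPM (median 3.99) at 100 mg/kg and 0.976 to 4.32 CPM (median 1.90) at 200 mg/kg. Its 200 mg/kg range overlapped that of the vehicle group, where mouse 30 was the highest. The log2 fold change of Sparc was 1.70 ± 0.70 (adjusted p = 0.0458) at 200 mg/kg and 2.65 ± 0.71 (adjusted p = 0.00467) at 100 mg/kg. The former call was lost when any of 10 of the 12 mice was left out, with Sparc log2 fold changes of 1.42 to 1.78 and adjusted p of 0.0511 to 0.0914.

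The eicosanoid enzymes and the cytoskeletal and cytosolic proteins moved with the receptors. Alox12, the platelet 12-lipoxygenase, differed by 3.24 ± 0.22 on the log2 scale at 200 mg/kg on Day 1, Ptgs1, the constitutive cyclooxygenase, by 3.16 ± 0.21 and Tbxas1, thromboxane synthase, by 2.73 ± 0.17. Tubb1, the β1-tubulin of the platelet marginal band, was at 199.7 to 419 CPM (median 261) in vehicle-treated mice, 287 to 633 CPM (median 481) at 50 mg/kg, 1629 to 4228 CPM (median 1953) at 100 mg/kg and 1738 to 2917 CPM (median 2644) at 200 mg/kg. The upper doses did not overlap the vehicle group, and the log2 fold change at 200 mg/kg was 3.22 ± 0.21 (adjusted p = 2.19e-08). Myl9, a myosin light chain, differed by 3.22 ± 0.22, Nrgn by 3.08 ± 0.23, Ctla2a, a protease inhibitor with the near-identical paralog Ctla2b, by 2.86 ± 0.25 and Rab27b, a small GTPase of granule secretion, by 2.60 ± 0.23. Bin2, a membrane-bending adaptor also expressed by leukocytes, had the smallest difference in this role group, 1.91 ± 0.13, from 87.2 to 119 CPM (median 99.7) in vehicle-treated mice to 283 to 426 CPM (median 369).

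**Figure D3:**
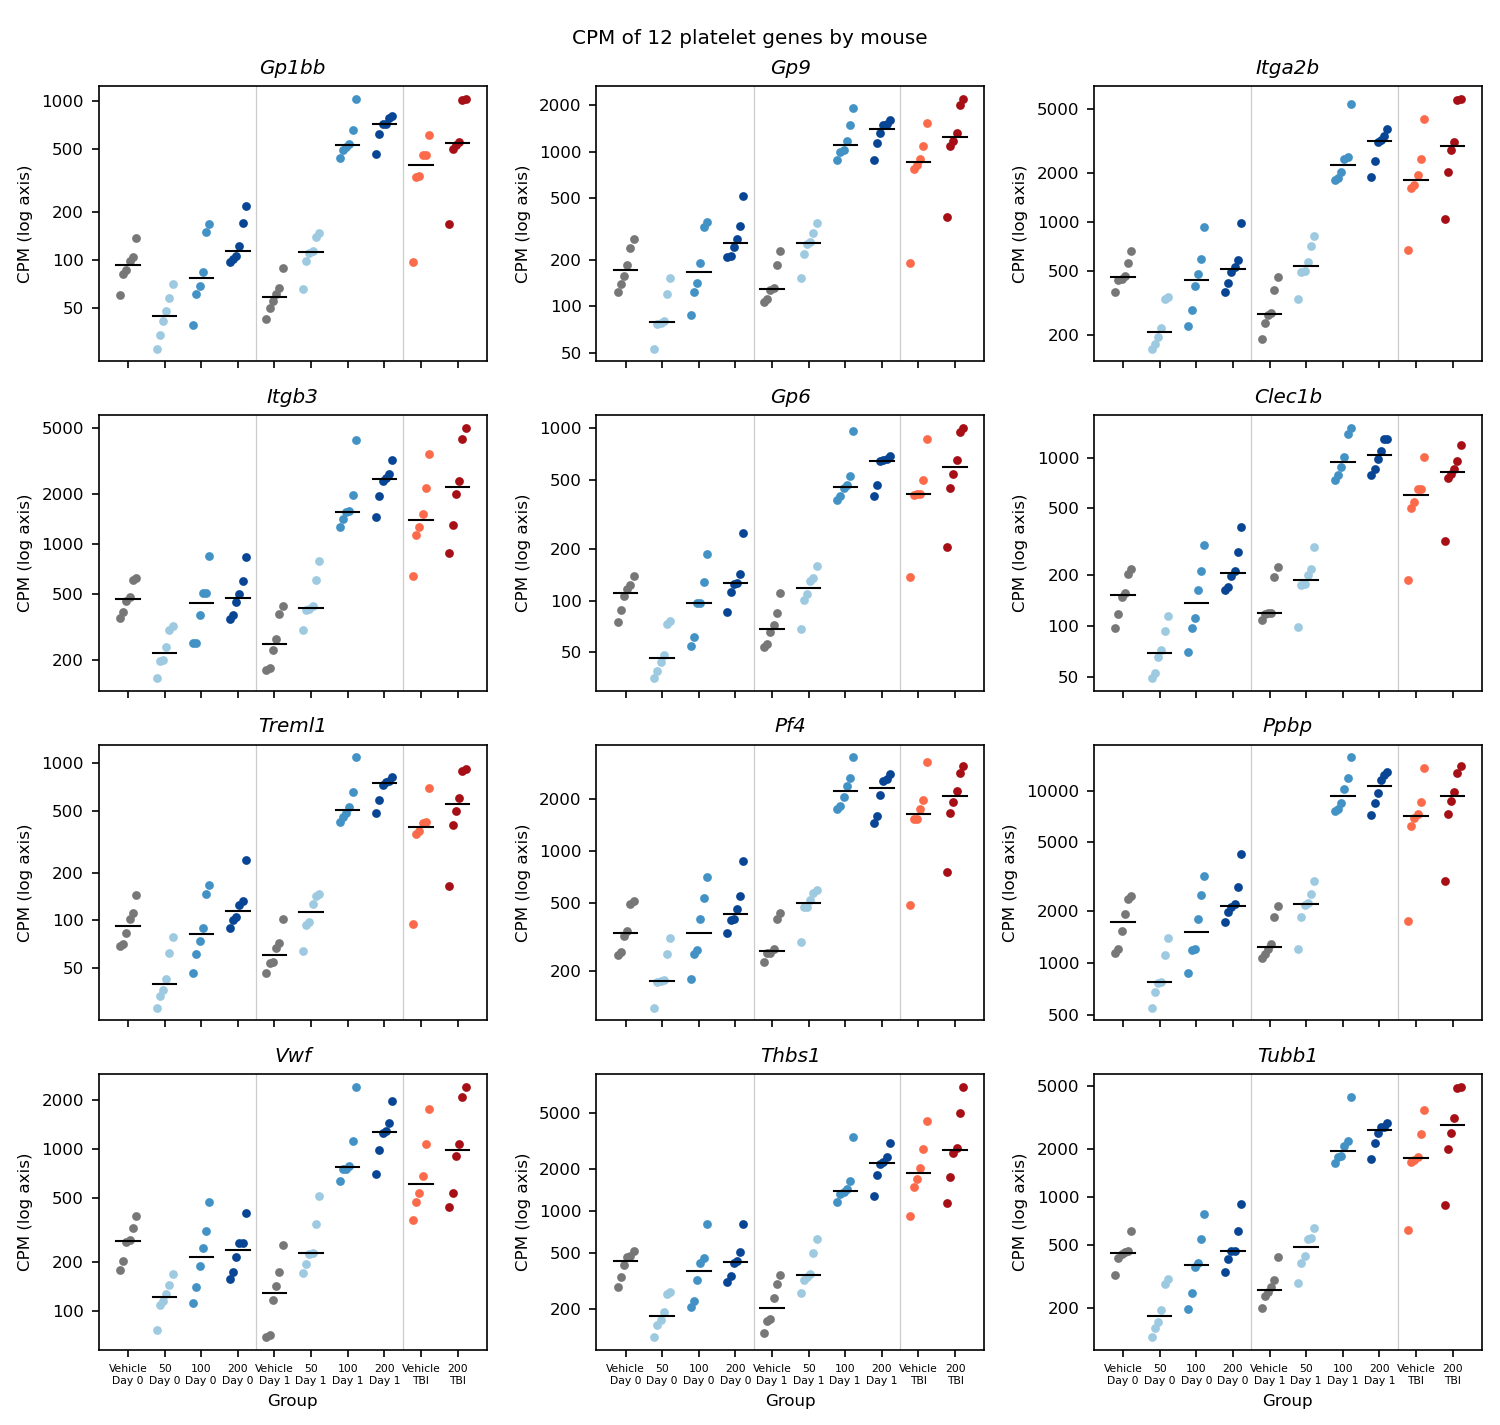
CPM of 12 members in every mouse (points) with the group median (line), on a log axis, for the 10 groups. In each panel the 100 and 200 mg/kg groups on Day 1 lie wholly above vehicle-treated mice of that day, and the lowest point of each TBI group is mouse 51 (vehicle) or mouse 57 (200 mg/kg). Median Ppbp went from 1244 CPM in vehicle-treated mice on Day 1 to 10596 CPM at 200 mg/kg.

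The second question was how the response depended on dose. At 50 mg/kg on Day 1, none of the 35 genes was a DEG by edgeR's quasi-likelihood test or by DESeq2 (by edgeR, 0% of all genes called higher, with 18.5% of 24118 genes at an unadjusted p under 0.05). Of the 35, 34 had a positive log2 fold change, 28 of them at an unadjusted p under 0.05, and the median was 0.67 beside -0.04 for all genes. The values reached 1.03 ± 0.34 (adjusted p = 0.145) for Vwf and 0.93 ± 0.24 (adjusted p = 0.105) for Itga2b, and every member overlapped the vehicle group (0.506% of all genes did not, on the higher side). Leaving out mouse 27 of the vehicle group made Gp1bb a DEG (1.05, adjusted p = 0.0482), and leaving out mouse 36 of the 50 mg/kg group did so for Itga2b, Gp5 and Gp1bb. The 100 mg/kg group differed from the 50 mg/kg group on Day 1 in all 35 genes, with a median log2 fold change of 2.28 (19.7% of all genes called higher and 26.6% lower, all-gene median -0.28) and no overlap for any member (15.6% of all genes). With libraries scaled by total counts the median was 1.23, 31 members were called and 28 did not overlap (3.91% of all genes). Treml1, for example, differed between these doses by 2.48 ± 0.27 (adjusted p = 2.74e-06) and Pf4 by 2.32 ± 0.24 (adjusted p = 1.97e-06).

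Between 100 and 200 mg/kg on Day 1, no member was a DEG by either tool (by edgeR, 0% of 19942 genes called, 3.64% at an unadjusted p under 0.05). Log2 differences of 200 relative to 100 mg/kg had a median of 0.12, and 1 member, Sparc, had an unadjusted p under 0.05 (-0.96, adjusted p = 0.999). For Gp1bb the difference was 0.20 with a 95% interval of -0.20 to 0.59, for Itga2b 0.19 (-0.34 to 0.72), for Ppbp 0.05 (-0.44 to 0.54) and for Thbs1 0.36 (-0.17 to 0.90). These intervals bound the doses' difference and do not show that the doses acted alike. In the 100 mg/kg group mouse 42 was the highest for 34 of the 35 members, Sparc excepted, reaching 5317 CPM for Itga2b.

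The third question was whether the same doses altered these transcripts a day earlier, on Day 0. At 100 mg/kg no member was a DEG by edgeR or DESeq2, none had an unadjusted p under 0.05, and the median log2 fold change was 0.02 (by edgeR, 0% of 24000 genes called, 3.02% at an unadjusted p under 0.05). At 200 mg/kg no member was a DEG by either tool (by edgeR, 0% of 23795 genes called, 9.02% at an unadjusted p under 0.05), the median was 0.39, and 7 members were higher and 1, Sparc, lower at an unadjusted p under 0.05. Trpc6 had the highest value, 0.70 ± 0.28 (adjusted p = 0.546), and Gp9 was at 0.68 ± 0.26 (adjusted p = 0.546). Pf4 was at 249 to 513 CPM (median 333) in vehicle-treated mice, 179.6 to 702 CPM (median 333) at 100 mg/kg and 336 to 872 CPM (median 431) at 200 mg/kg on Day 0. Itga2b was at 368 to 662 CPM (median 453), 229 to 930.3 CPM (median 438) and 368 to 979.6 CPM (median 508). The 3 ranges overlapped for both genes.

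The 50 mg/kg group on Day 0 went the other way on the TMM scale. Of the 35 genes, 17 were lower than in vehicle-treated mice of Day 0 and none higher, against 4.38% of 24485 genes called lower and 0.127% called higher. All 35 had a negative log2 fold change, with a median of -1.0 (all genes, 0.03), and 34 had an unadjusted p under 0.05 (31% of all genes, in either direction). Thbs1 was at 287 to 517 CPM (median 442) in vehicle-treated mice and 126 to 265 CPM (median 179) at 50 mg/kg, Tubb1 at 322 to 608 CPM (median 445) and 131 to 304 CPM (median 178), and Vwf at 177 to 385 CPM (median 270.4) and 76.1 to 169 CPM (median 121). These groups did not overlap, as for 11 members in all (all genes without overlap on the lower side, 4.41%), and the log2 fold changes were -1.10 ± 0.20 (adjusted p = 0.00359), -1.13 ± 0.22 (adjusted p = 0.00557) and -1.13 ± 0.21 (adjusted p = 0.00432). Sparc had the lowest value, -3.50 ± 0.76 (adjusted p = 0.00905), whereas F2rl3 (-0.05) and Bin2 (-0.26) were the nearest to 0.

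Most of the 50 mg/kg values on Day 0 lay close to the fold-change threshold, and the count of calls was unstable. DESeq2 and RLE size factors each called 26 members, and libraries scaled by total counts called 1, Sparc, with a member median of -0.36 and an all-gene median of 0.69, so that the members stood -1.04 from all genes on that scale and -1.03 with TMM. TMM factors in this group were 1.39 to 2.02 (median 1.90), against 0.980 to 1.38 (median 1.13) in the vehicle group, and Gm26917 took 6.32 to 12.9% (median 11.8%) of the counts against 3.55 to 8.02% (median 6.64%). Leaving out vehicle mouse 13 gave 11 calls, mouse 15 gave 7, and mouse 14 or mouse 16 gave 30. Leaving out mouse 1 of the 50 mg/kg group gave 7, mouse 3 or mouse 4 gave 8, mouse 6 gave 30 and mouse 2 gave 32. Without the mice with hepatocyte transcripts the count was 7 and the median -0.94. The share of all genes called was not counted under these alternatives or with mice left out. With total counts no member was free of overlap (1.19% of all genes on the lower side). Red cell transcripts also differed between these groups, at 87496 to 163094 (median 134324) summed CPM in the vehicle group and 30089.9 to 107878 (median 39898) at 50 mg/kg, with 3 of 7 genes called lower, and haemoglobin genes took 6.47 to 11.3% (median 9.71%) and 4.10 to 11.1% (median 5.32%) of the counts. Summed B cell CPM were 984 to 1601 (median 1344) and 1354 to 2002 (median 1768), with none of 8 genes called. Their part in the platelet values was not tested.

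In vehicle-treated mice, no member differed between Day 1 and Day 0 by edgeR or DESeq2 (by edgeR, 0% of 24375 genes called, 12.3% at an unadjusted p under 0.05). The median log2 fold change of Day 1 relative to Day 0 was -0.52, 34 of 35 members were negative, and 19 had an unadjusted p under 0.05. Sparc was at -2.25 ± 0.94 (adjusted p = 0.348), Vwf at -0.98 ± 0.31 (adjusted p = 0.246) and Thbs1 at -0.88 ± 0.24 (adjusted p = 0.210), and ranges overlapped for every member (0.222% of all genes did not, on the lower side). The vehicle group of Day 1, the reference for the Day 1 doses and for TBI, thus had a lower median CPM than that of Day 0 for all 35 genes, Vwf being at 177 to 385 CPM (median 270.4) on Day 0 and 68.7 to 254 CPM (median 129) on Day 1.

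The difference of the drug effect between days was tested directly. The effect on Day 1 exceeded that on Day 0 in all 35 genes at 100 mg/kg, with a median difference of 2.90 on the log2 scale (15.7% of all genes called higher), and in all 35 at 200 mg/kg, with a median of 2.66 (13.1%). At 50 mg/kg it did so in 31 genes, with a median of 1.71 (6.73%), the exceptions being F2rl3, Selp, Sparc and Bin2. With total counts as the scale 33 members were called at 100 mg/kg (median 1.56), 28 at 200 mg/kg (1.38) and 2 at 50 mg/kg (0.67). All-gene medians on that scale were -1.83, -1.58 and -1.05 in the same order. Gp5 had a difference of 2.04 ± 0.33 (adjusted p = 2.98e-04) at 50 mg/kg, 3.29 ± 0.42 (adjusted p = 1.33e-06) at 100 mg/kg and 3.19 ± 0.32 (adjusted p = 1.54e-07) at 200 mg/kg.

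The fourth question was what TBI did to platelet transcripts after 24 h. In vehicle-treated mice, all 35 genes were higher after TBI than in non-irradiated mice of Day 1, against 19.6% of 25146 genes called higher and 16.4% called lower. The median log2 fold change was 2.58, or 5.96-fold, beside 0.09 for all genes, and members ran from 1.40 for F2rl3 to 3.41 for Sparc. Groups did not overlap for 24 members (all genes without overlap on the higher side, 11.1%). Relative to vehicle-treated mice of Day 0, 34 of the 35 were higher, with a median of 2.21 (15.1% of all genes called higher), Sparc being the exception (1.17 ± 0.91, adjusted p = 0.343), and 10 did not overlap (8.49% of all genes). The F2rl3 call against Day 0 (1.18 ± 0.38, adjusted p = 0.0276) was lost without any of mice 16, 17 and 18 of the vehicle group or mice 50 and 54 of the irradiated group, with log2 fold changes of 0.80 to 1.18.

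Among the receptors, the pattern across mice was common to nearly all genes. Gp1bb was at 97.8 to 617 CPM (median 401) in irradiated vehicle-treated mice, a log2 fold change of 2.63 ± 0.36 (adjusted p = 1.10e-04) against non-irradiated mice of Day 1. Itga2b was at 671 to 4288 CPM (median 1817), with a log2 fold change of 2.78 ± 0.40 (adjusted p = 1.48e-04), and Gp6 at 137 to 862 CPM (median 415), with 2.60 ± 0.36 (adjusted p = 1.17e-04). These 3 genes did not overlap the non-irradiated mice. Gp9 was at 189.6 to 1537 CPM (median 852) (2.54 ± 0.41, adjusted p = 2.91e-04) and Clec1b at 188 to 1009.9 CPM (median 597) (1.97 ± 0.35, adjusted p = 6.10e-04), and for both mouse 51 fell within the non-irradiated range. Mouse 51 was the lowest of its group for 32 of the 35 members and mouse 50 the highest for 33, Selp and Sparc being the exceptions in either case, with F5 in the former. The thrombin receptor F2rl3 was at 1.16 to 4.81 CPM (median 2.40), a log2 fold change of 1.40 ± 0.34 (adjusted p = 0.00470) with overlap. The guanylate cyclase subunit Gucy1a1 was at 3.71 to 8.42 CPM (median 5.39) in non-irradiated and 15.3 to 88.9 CPM (median 45.1) in irradiated mice, without overlap, and had the largest difference of the receptors, 3.10 ± 0.36 (adjusted p = 3.41e-05).

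Secreted proteins held the 3 largest log2 fold changes after TBI, those of Sparc, Thbs1 and Selp. Thbs1 was at 921 to 4389 CPM (median 1854) in irradiated vehicle-treated mice, a log2 fold change of 3.25 ± 0.40 (adjusted p = 5.27e-05) against Day 1 and 2.52 ± 0.39 (adjusted p = 3.73e-04) against Day 0. Selp was at 15.1 to 129 CPM (median 21.2), a log2 fold change of 3.17 ± 0.56 (adjusted p = 6.00e-04) against Day 1, and Sparc at 0.920 to 26.7 CPM (median 5.16), with 3.41 ± 1.01 (adjusted p = 0.0152). Mouse 51, which had the highest hepatocyte transcripts of the series, had the highest Selp and Sparc of its group and the lowest Ppbp, at 1740.2 CPM. Pf4 was at 486 to 3271 CPM (median 1637), with a log2 fold change of 2.48 ± 0.38 (adjusted p = 2.21e-04), Ppbp at 1740.2 to 13558 CPM (median 7142), with 2.33 ± 0.43 (adjusted p = 8.21e-04), and Vwf at 366 to 1752 CPM (median 605), with 2.52 ± 0.45 (adjusted p = 6.21e-04). The Pf4 and Vwf groups did not overlap, while Ppbp of mouse 51 lay within the non-irradiated range. Ptgs1 had the smallest adjusted p of the 35, with a log2 fold change of 2.74 ± 0.26 (adjusted p = 8.74e-06). Tubb1 was at 617 to 3499.7 CPM (median 1755), without overlap, and differed by 2.78 ± 0.37 (adjusted p = 8.07e-05).

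The fifth question was whether BIO 300 before TBI altered these transcripts. The irradiated 200 mg/kg group did not differ from irradiated vehicle-treated mice in any member by edgeR or DESeq2 (by edgeR, 0% of 24916 genes called, 2.76% at an unadjusted p under 0.05, of which none was a member). The median log2 difference was 0.45, and 33 of 35 members were positive. Gp1bb was at 168 to 1044 CPM (median 545), Itga2b at 1033 to 5771 CPM (median 2933), Ppbp at 3006 to 13804 CPM (median 9286) and Thbs1 at 1133 to 7662 CPM (median 2705) in the irradiated 200 mg/kg group. Their differences from irradiated vehicle-treated mice were 0.66 (95% interval -0.31 to 1.63), 0.61 (-0.42 to 1.65), 0.25 (-0.76 to 1.25) and 0.58 (-0.47 to 1.63), and a log2 difference of 1 lay within the interval for Gp1bb, Itga2b, Ppbp and Thbs1. Mouse 57 was the lowest of the irradiated 200 mg/kg group for 33 members and the highest for Selp and Sparc.

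Relative to 200 mg/kg without TBI, the irradiated 200 mg/kg group also had no DEG among the 35 (14.9% of 23610 genes called higher and 5.73% lower, DESeq2 likewise 0 members). The median log2 difference was 0.04, beside 0.41 for all genes, and 1 member had an unadjusted p under 0.05 (40.3% of all genes). Gucy1a1, the member in question, was at 24.3 to 48.4 CPM (median 39.3) without and 27.0 to 103 CPM (median 63.1) with TBI, a log2 difference of 0.79 ± 0.30 (adjusted p = 0.0702), and it became a DEG without mouse 57 (1.11, adjusted p = 0.00103). On the total-count scale 6 members were called higher and the member median was 0.82, against 1.31 for all genes. On that scale 5 members were higher without overlap, as were 24.9% of all genes, so that the members did not stand out.

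The effect of 200 mg/kg was therefore compared between irradiated and non-irradiated mice in a single model. It was lower in irradiated mice for 34 of the 35 genes, with a median of -2.39 on the log2 scale, against 10% of all genes called lower, 19.5% called higher and an all-gene median of 0.60. Treml1 had the lowest value, -2.75 ± 0.50 (adjusted p = 3.75e-04), and Gp1bb was at -2.68 ± 0.50 (adjusted p = 4.23e-04), Ptgs1 at -2.67 ± 0.37 (adjusted p = 5.13e-05) and Bin2, the nearest to 0, at -1.23 ± 0.39 (adjusted p = 0.0173). Sparc was not called (-2.08 ± 1.38, adjusted p = 0.255). With total counts 27 members were called lower, and the median was -1.23, beside 1.68 for all genes. Of the 4 groups in this model, the vehicle-treated mice without TBI had the lowest median CPM for all 35 members, and the other 3 groups had medians at least 3.70, 2.72 and 2.57 times higher for 200 mg/kg, TBI and both. Gp6, for example, had a median of 68.7 CPM in vehicle-treated mice, 647 with 200 mg/kg, 415 with TBI and 599 with both.

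The size of these differences depended on the scale, since TMM factors and total counts moved apart between groups. Scaling by total counts instead shifted the log2 fold change of all genes by a median of -1.38 at 100 mg/kg, -1.48 at 200 mg/kg on Day 1 and -0.36 after TBI in vehicle-treated mice, within a range of -1.48 to 1.11 over the 17 comparisons. On that scale 32 members were called higher in the 100 mg/kg group of Day 1, 30 in the 200 mg/kg group and 33 after TBI, with medians of 1.50, 1.35 and 2.06. The TBI difference was thus the largest of these medians with total counts and the smallest with TMM. Relative to all genes, the members' median stood 3.29, 3.39 and 2.49 higher with TMM and 3.25, 3.31 and 2.34 higher with total counts. Gp1bb differed by 2.03 at 200 mg/kg and 2.11 after TBI with total counts, and Thbs1 by 1.82 and 2.74. With total counts 30 members did not overlap at 100 mg/kg (3.89% of all genes on the higher side), 31 at 200 mg/kg (3.7%) and 21 after TBI (6.05%). The share of all genes called was counted in the main TMM fits only. All 35 members were positive against vehicle of Day 1 on both scales in these 3 comparisons.

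**Figure D4:**
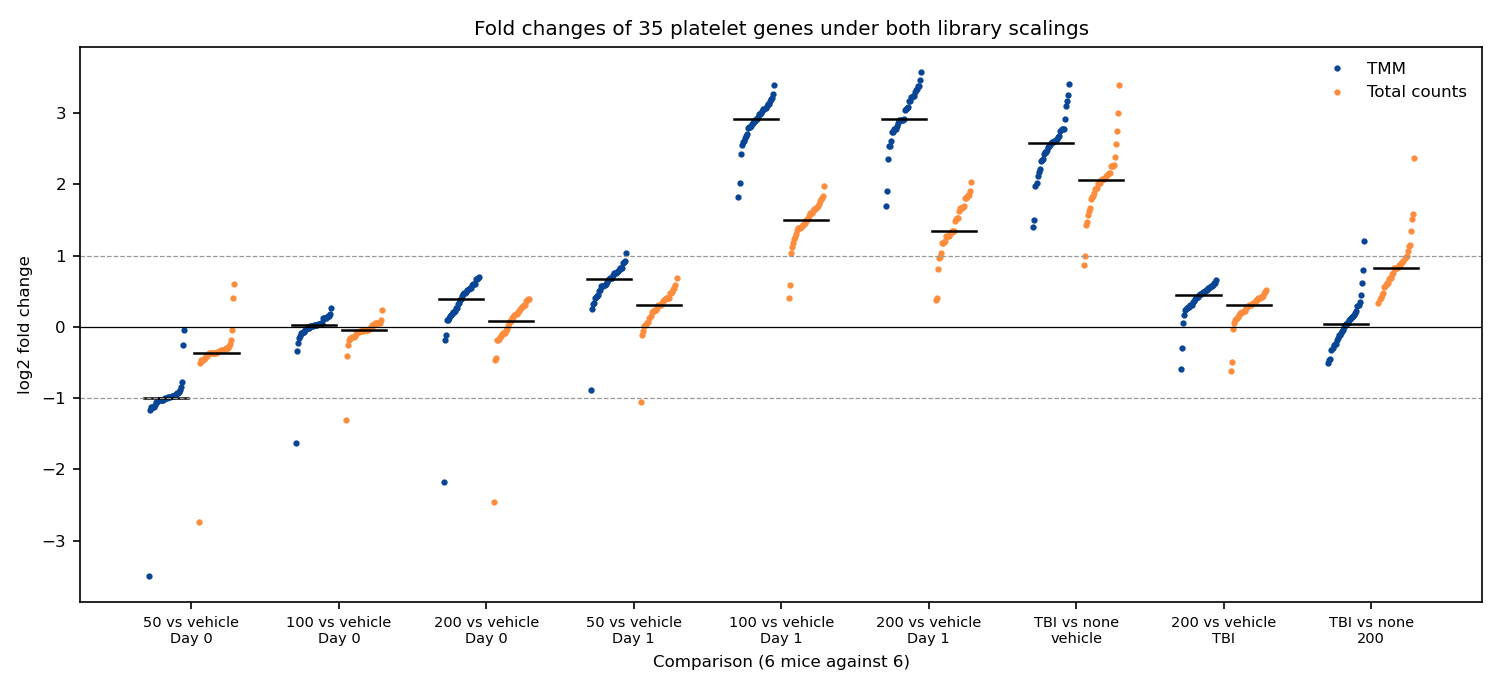
Log2 fold changes of the 35 genes (points, sorted) with their median (line) in 9 comparisons of 6 against 6 mice, with libraries scaled by TMM (blue) or by total counts (orange). Dashed lines mark log2 fold changes of 1 and -1. Medians at 200 mg/kg on Day 1 were 2.91 with TMM and 1.35 with total counts, and after TBI in vehicle-treated mice 2.58 and 2.06.

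Expressed as shares of the 35 genes' summed counts, the make-up of the platelet transcripts varied far less than their total. Ppbp took the largest share in every group, with medians of 15.3% to 18.1%. Thbs1 took 1.79 to 4.31% (median 2.57%) in vehicle-treated mice on Day 1, 3.08 to 4.76% (median 3.42%) at 200 mg/kg and 3.16 to 6.65% (median 5.17%) after TBI, but 2.74 to 5.16% (median 4.42%) in vehicle-treated mice on Day 0. Gucy1a1 took 0.0620 to 0.0759% (median 0.0677%), 0.0507 to 0.0760% (median 0.0604%) and 0.0958 to 0.120% (median 0.110%) in vehicle-treated, 200 mg/kg and irradiated vehicle-treated mice of Day 1, and 0.0971 to 0.131% (median 0.113%) in irradiated 200 mg/kg mice, so that each irradiated mouse was above the vehicle-treated and 200 mg/kg mice of Day 1 without TBI. In vehicle-treated mice of the earlier day Gucy1a1 took 0.0775 to 0.113% (median 0.0840%), which overlapped the irradiated groups. Clec1b took 1.47 to 2.12% (median 1.86%) in vehicle-treated mice of Day 1 and 1.54 to 1.90% (median 1.80%) at 200 mg/kg, and its irradiated vehicle-treated share, 1.25 to 1.43% (median 1.34%), lay below both. The Clec1b share was 1.07 to 1.70% (median 1.41%) in irradiated 200 mg/kg mice and 1.35 to 1.76% (median 1.48%) in the vehicle group of Day 0, and these ranges overlapped that of irradiated vehicle-treated mice. Ctla2a took 9.78 to 14.1% (median 12.0%) in vehicle-treated mice on Day 1, 8.30 to 11.1% (median 8.69%) on Day 0 and 8.36 to 10.2% (median 8.85%) after TBI.

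Other shares moved with the day or with dose. F5 took 2.11 to 5.38% (median 4.22%) of the summed counts in vehicle-treated mice of Day 0 and 1.41 to 4.52% (median 2.41%) on Day 1, with overlap. Itgb3 took 3.14 to 5.69% (median 5.05%) and 1.93 to 5.21% (median 3.35%), again with overlap. Itga2b took 2.57 to 4.68% (median 3.94%) in vehicle-treated mice of Day 1, 3.49 to 5.63% (median 4.19%) at 100 mg/kg and 4.42 to 5.91% (median 4.75%) at 200 mg/kg, with overlap. In vehicle-treated mice of Day 0 Itga2b took 3.54 to 5.51% (median 4.96%), which overlapped all 3 of these groups. Bin2 took 1.04 to 1.54% (median 1.31%) in vehicle-treated mice on Day 1, 0.500 to 0.668% (median 0.564%) at 100 mg/kg, 0.509 to 0.682% (median 0.617%) at 200 mg/kg and 0.546 to 0.777% (median 0.684%) after TBI. Bin2, which leukocytes also express, and F2rl3 were the members whose shares lay below the vehicle range in each of these 3 groups. Rab27b and Tbxas1 also lay below it at 100 and 200 mg/kg, P2ry12 at 200 mg/kg, and Clec1b and Trpc6 after TBI. Above the vehicle range lay 4 members at 100 mg/kg (Gp1bb, Gp9, Nrgn and Treml1), those 4 with Myl9 and P2rx1 at 200 mg/kg, and Gucy1a1 and Pdgfa after TBI. The vehicle range in these lists is that of Day 1. Relative to vehicle-treated mice of Day 0, the shares of P2ry12, Gp1bb and P2rx1 at 200 mg/kg overlapped, while those of Gp9 and Treml1 did not. These shares are a description of the libraries and were not tested.

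**Figure D5:**
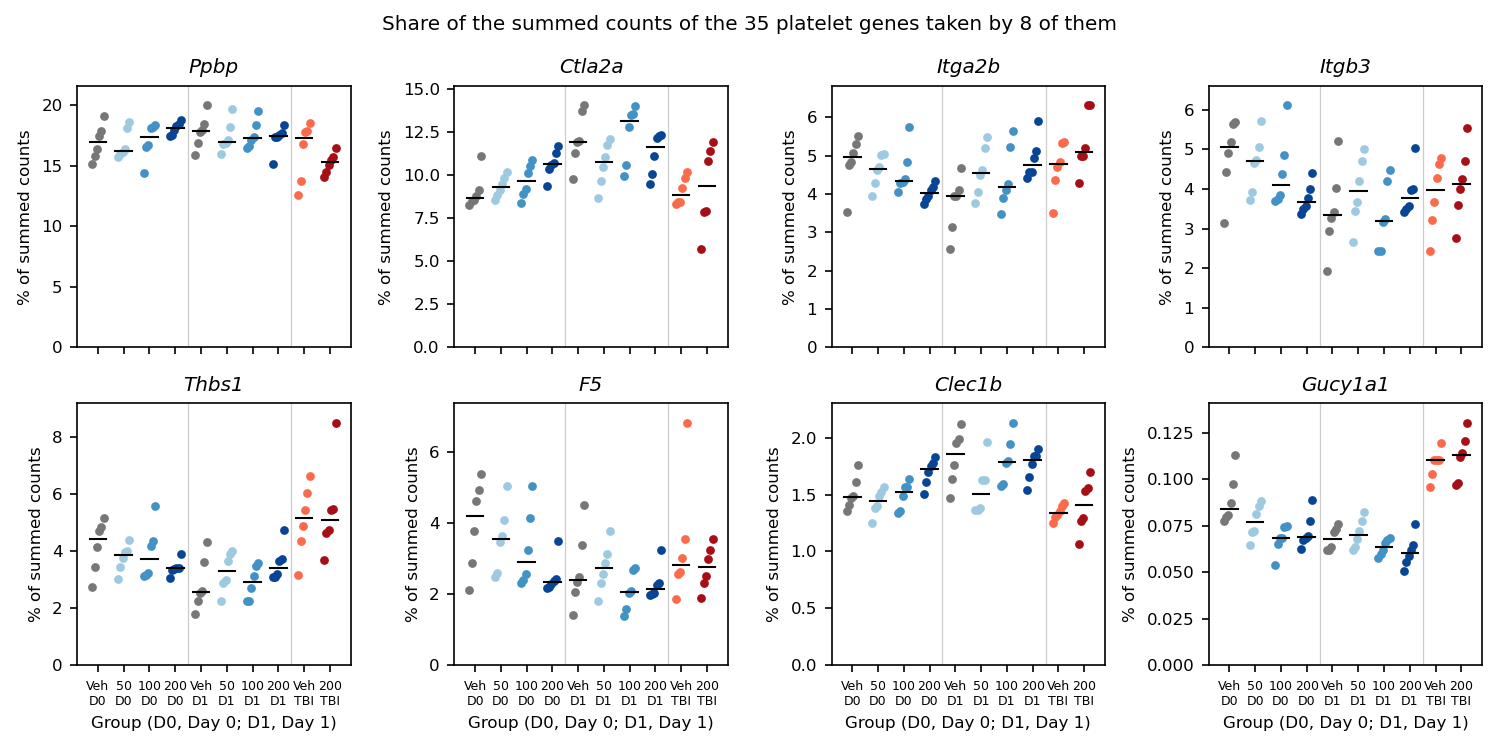
Percentage of the summed counts of the 35 genes taken by 8 of them in each mouse (points) with the group median (line), for the 10 groups. Ppbp stayed between medians of 15.3% and 18.1%, whereas Gucy1a1 stood at a median of 0.110% in irradiated vehicle-treated mice and 0.0604% at 200 mg/kg without TBI.

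Within groups the members varied together from mouse to mouse. Across the 60 mice, after subtraction of group means, the 595 pairs of members had a median Pearson r of 0.90 on the log2(CPM + 1) scale, from -0.55 to 0.99. Each mouse contributes 1 library to all genes, so that these values also carry its scaling factor, and they are given as a description. Myl9 had the highest median r with the other members, 0.96, and Treml1, P2rx1, F2rl2, Mmrn1, Rab27b and Nrgn followed at 0.95. Vwf was at 0.73, F5 at 0.67 and F2rl3 at 0.67, while Selp was at -0.08 and Sparc at -0.46. The within-group SD on the log2(CPM + 1) scale was 0.348 for F2rl3, 0.407 for Bin2, 0.601 for Itga2b and 0.918 for Sparc, the widest of the 35. The pseudocount of 1 narrows the spread of scarce genes such as F2rl3 and Sparc. Their SDs are therefore not directly comparable with those of abundant members.

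A further 57 genes of platelets and megakaryocytes, also listed by role, were read from the same fits. Like the 35 members, they were chosen with earlier results of these data known and are no independent support. At 200 mg/kg on Day 1, 43 were higher and 2 lower, with a median log2 fold change of 2.03 (17.3% of all genes higher and 30.5% lower), and at 100 mg/kg 41 were higher and 2 lower (18.2% and 30.6%). After TBI in vehicle-treated mice, 41 were higher and 2 lower, with a median of 1.72 (19.6% and 16.4%). Among the largest at 200 mg/kg were F11r, a junctional adhesion molecule (3.43 ± 0.18, adjusted p = 1.77e-08), and Mpig6b, an inhibitory receptor (3.25 ± 0.22, adjusted p = 2.33e-08). The largest after TBI were Tuba8, an α-tubulin (3.08 ± 0.35, adjusted p = 2.96e-05), Gfi1b, a transcriptional repressor of the erythroid and megakaryocyte lineages (2.95 ± 0.33, adjusted p = 2.48e-05), and F11r (2.86 ± 0.22, adjusted p = 2.81e-06). Called against this direction were Icam2 (-1.62), an adhesion molecule shared with lymphocytes, and Tbxa2r (-1.59), the thromboxane receptor, at 200 mg/kg, and Tbxa2r (-1.99) and Mef2c (-1.04), a factor also present in B cells, after TBI.

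By role, 14 of 16 other surface proteins were higher at 200 mg/kg on Day 1 (median 2.61), as were 7 of 11 granule and secretion genes (1.51), 8 of 13 signalling genes (1.02), 8 of 9 cytoskeletal genes (2.02) and 6 of 8 transcription factors (2.18). After TBI the counts were 13 of 16 (median 2.21), 8 of 11 (1.39), 8 of 13 (1.66), 8 of 9 (1.54) and 4 of 8 (1.55). The factors Gata1 (2.65 at 200 mg/kg and 2.73 after TBI), Nfe2 (2.68 and 2.14) and Tal1 (2.78 and 2.59) were called higher in both, and these genes are also expressed by the red cell lineage. Runx1 was not called in either (0.92 and 0.55).

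At 50 mg/kg on Day 0, 11 of the 57 were lower and none higher on the TMM scale (4.38% of all genes lower and 0.127% higher), on which the log2 fold change of all genes stood a median of 0.66 below that with total counts. In the irradiated 200 mg/kg group 0 of the 57 were called against irradiated vehicle-treated mice by edgeR, with 0 at an unadjusted p under 0.05. Relative to 200 mg/kg without TBI, the irradiated 200 mg/kg group had 2 of the 57 genes higher and 1 lower, smaller shares than those of all genes (14.9% higher and 5.73% lower). Dnm3, a dynamin of megakaryocyte membranes, was higher (3.88 ± 0.69, adjusted p = 0.00125), as was Nbeal2, which is needed for α-granules (1.87 ± 0.25, adjusted p = 1.80e-04), and Cd36, a scavenger receptor shared with erythroid cells and monocytes, was lower (-1.05 ± 0.27, adjusted p = 0.0120). Dnm3 was not called at 200 mg/kg alone (-1.16 ± 0.64, adjusted p = 0.128) and was called higher after TBI in vehicle-treated mice (2.48 ± 0.42, adjusted p = 4.53e-04), and Nbeal2 followed the same course (-0.21 ± 0.17, adjusted p = 0.283, and 1.56 ± 0.25, adjusted p = 2.60e-04).

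Markers of other blood cells moved in the same comparisons. At 200 mg/kg on Day 1, all 7 matched red cell genes were called higher (median log2 fold change 2.25), all 8 B cell and all 8 T cell genes lower (-1.90 and -1.77) and none of 8 neutrophil genes, against 17.3% of all genes called higher and 30.5% lower. Summed red cell CPM were 78676 to 117153 (median 99549.9) in vehicle-treated mice and 276348 to 624050.0 (median 457193) at 200 mg/kg. These sums carry the TMM factors, with medians of 1.45 and 0.538, and are not shares of a library. Haemoglobin genes took 8.30 to 12.4% (median 9.76%) and 10.8 to 22.1% (median 16.9%) of the counts, with overlap. Summed B cell CPM were 1142 to 1746 (median 1301) in vehicle-treated mice and 177 to 601 (median 384) at 200 mg/kg. After TBI in vehicle-treated mice, no red cell gene was called (0.31), all 8 neutrophil genes were higher (2.78) and all 8 B cell and 8 T cell genes lower (-3.54 and -2.43), against 19.6% of all genes higher and 16.4% lower. Summed CPM of 8 monocyte genes were 410.0 to 686 (median 579) in vehicle-treated mice, 1071 to 1331 (median 1279.7) at 200 mg/kg and 934 to 4262 (median 1162) after TBI, both above the vehicle range on the TMM scale. Cell-type sums were not taken with total counts, which shifted all genes by a median of -1.48 at 200 mg/kg and -0.36 after TBI. At 200 mg/kg 1 of the 8 monocyte genes was called higher and 3 lower, and the counts after TBI were 2 and 3. The sum at 200 mg/kg came mostly from F13a1, a coagulation factor subunit that is also among the 57 platelet genes, with a median of 1155 CPM against 155 in vehicle-treated mice. The part of these cells in the platelet differences was not tested.

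Summed endothelial transcripts were also higher on the TMM scale, and Vwf, Selp, Sparc and Thbs1 are known to be made by endothelium. The summed CPM of 8 endothelial genes were 6.17 to 12.8 (median 9.25) in vehicle-treated mice on Day 1, 34.7 to 63.6 (median 58.7) at 200 mg/kg and 44.4 to 87.1 (median 59.8) after TBI. Of the 8 genes, 5 were called higher at 200 mg/kg (17.3% of all genes) and 8 after TBI (19.6%). At 200 mg/kg the sum came mostly from Tie1 (median 30.4 CPM), Kdr (13.0) and Plvap (11.6), whereas Cdh5, which encodes the endothelial cadherin, had a median of 1.11 CPM against 0.799 in vehicle-treated mice, Egfl7 was at 0.645 against 1.55, and Robo4 was at 0 in 2 of the 6 mice. Hepatocyte genes had 0 of 8 called by edgeR in either comparison, with 0 at an unadjusted p under 0.05. The 10 mice over the hepatocyte limit were mice 1, 9, 17, 21, 29, 37, 43, 49, 51 and 57, of which mice 49 and 51 were irradiated vehicle-treated animals. Without those mice, all 35 members were still called higher at 100 mg/kg on Day 1 (median 2.89) and after TBI (2.84), and 34 at 200 mg/kg (2.97), Sparc being lost (1.45, adjusted p = 0.0786).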

How the data were processed

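RNA from whole blood of 60 mice was sequenced in 1 library per mouse. The labels give polyA selection, whereas the study's methods give stranded total RNA with ribosomal and globin depletion. Per the labels and the study's methods, the authors trimmed reads with Trimmomatic 0.36, aligned them with STAR 2.5.2b to GRCm38 and deposited raw counts of uniquely assigned reads per gene from Subread 1.5.2. The annotation release and the strand setting were not given in the sources used here. The deposited comparison tables also hold a normalised signal, counts divided by the authors' DESeq2 size factors, which served to pair symbols with identifiers and to check columns. Their log2 fold changes and p-values were not used. Mice were grouped by the day and treatment labels, and doses in mg/kg come from the study's methods.

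Counts were tested with edgeR 4.0.16 (TMM, quasi-likelihood F test, R 4.3.3) in 13 pairs of groups and 4 interactions, each fitted to its own groups after a summed count of at least 10, with Benjamini-Hochberg adjustment over all genes tested. SE was the absolute log2 fold change divided by the square root of F, and 95% intervals used the t quantile of the fit. DESeq2 1.42.0, RLE size factors, total counts, other filters and leaving out each mouse were alternatives, and leaving out mice over 500 summed hepatocyte CPM was added after seeing the data. Levels per kilobase used merged exon lengths from a GENCODE annotation of GRCm38, and plotted logs used a pseudocount of 1. The 35 members and all lists were chosen with earlier results of these data known. Values by mouse are given for 12 members chosen by role and for 5 whose call or direction departed from most. Of the 57 other platelet genes, the 3 largest called differences and those called against the majority are named for 200 mg/kg and for TBI, except 1 that is not reported here, and Dnm3, Nbeal2, Cd36 and the transcription factors were named after their values were seen. The fits were tested on simulated counts. No pair of libraries matched within sampling noise. The study's methods state that mice shared cages and, for TBI, irradiation boxes, but the labels tie no mouse to a cage, box or run. The p-values therefore take mice as independent, and an effect shared within a cage, box or run could not be tested.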

Additional observations from a re-analysis of the deposited data

Results flagged for a closer look

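A mouse was singled out where its gap to the next mouse was large for the range of its group of 6, a test that chance passes in about 1 in 20 groups. Of 130 groups of values tested (12 members and the summed share, in 10 groups), 12 had such a mouse. In the 100 mg/kg group of Day 1, mouse 42 stood above the other 5 for 8 members. Its CPM were 1038 for Gp1bb (the others 438 to 659.9), 5317 for Itga2b (1816 to 2508), 4220.5 for Itgb3 (1262 to 1961), 970.3 for Gp6 (381 to 529), 1088 for Treml1 (422 to 656), 2414 for Vwf (637 to 1121), 3378 for Thbs1 (1165 to 1626) and 4228 for Tubb1 (1629 to 2248). Without mouse 42, all 35 members were still called higher than in vehicle-treated mice. In the 200 mg/kg group of Day 0, mouse 22 stood above the others, at 979.6 CPM for Itga2b (368 to 583), 247 for Gp6 (85.4 to 142) and 241 for Treml1 (89.3 to 132). In irradiated vehicle-treated mice, the 35 genes took 1.89% of the counts of mouse 51, against 4.27 to 5.35% in the others, and this mouse also had the highest hepatocyte transcripts.

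The effect of BIO 300 differed between days or with irradiation in 4 interaction tests. The effect on Day 1 exceeded that on Day 0 for 31 members with the 50 mg/kg dose (6.73% of all genes) and for all 35 with either higher dose (15.7% with 100 mg/kg and 13.1% with 200 mg/kg). The 31 became 2 with total counts. With TBI, the effect of 200 mg/kg was smaller than without it for 34 members (10% of all genes).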

How the results depend on the processing

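Counts of called members at 100 and 200 mg/kg on Day 1, between 100 and 50 mg/kg, after TBI and in the interactions at 100 mg/kg, 200 mg/kg and by TBI were within 1.5 times the main counts under DESeq2, RLE size factors, total counts, either filter and without the hepatocyte mice, and no call was reversed under any alternative. The 17 members lower at 50 mg/kg on Day 0 became 26 with DESeq2, 26 with RLE size factors, 1 with total counts and 7 without the hepatocyte mice. With total counts, 6 members were called higher in irradiated 200 mg/kg mice relative to non-irradiated ones, against 0, and 2 in the interaction at 50 mg/kg, against 31. In the former comparison 24.9% of all genes were higher without overlap on that scale. The causes were not tested, and the share of all genes called was not counted under the alternatives. Leaving out 1 mouse at a time gave 7 to 32 calls at 50 mg/kg on Day 0, 0 to 3 at 50 mg/kg on Day 1 and 0 to 1 in irradiated against non-irradiated 200 mg/kg mice. Single calls were lost in 76 and gained in 6 of 595 cases with total counts. Leaving out Pf4 and Ppbp must lower the share of counts in every group, and taking genes out of the total must raise it. Medians are listed only for groups where the shift exceeded the group's SD. Without Pf4 and Ppbp, the median share of counts fell to 0.836% in the 100 mg/kg group and 1.00% in the 200 mg/kg group of Day 0, and to 1.07% in the 50 mg/kg group and 2.41% in the 200 mg/kg group of Day 1. Without haemoglobin genes and Gm26917 in the total it rose to 1.55% in the 200 mg/kg group of Day 0, 1.66% in the 50 mg/kg group and 3.61% in the 200 mg/kg group of Day 1. Depth limited Sparc and F2rl3, with as few as 1 and 10 counts in a mouse. No paired analysis was possible because every mouse has an animal number of its own and the groups share none.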
